A study of Mus musculus with 3 samples.

Results

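The effector cytokine genes described here are *Il2*, *Il3*, *Il4*, *Il21*, *Ifng*, *Tnf*, *Lta*, *Csf2*, *Tnfsf11* and *Lif*, 10 genes out of 31053 in the feature table. They were listed by name with earlier results of these data known, and all 10 were found there under a unique symbol. They were measured by droplet single-cell RNA sequencing in 3 libraries of live CD3+CD4+ spleen cells sorted from C57BL/6 mice. The unstimulated WT library came from Ift20 f/f mice and was kept in buffer (DPBS) at 0 h, and the stimulated WT library came from the same genotype after 24 h of culture with antibodies to CD3 and CD28, each at 1 μg/mL. The stimulated IFT20-KO library came from Ift20 f/f CD4 cre mice after the same treatment, so Ift20, a subunit of the transport particle that serves cilia and vesicle traffic, was deleted only where Cre was driven by the Cd4 promoter. The floxed allele was shared by all 3 groups, no unstimulated IFT20-KO library was analysed here, naive CD4+ T cells had been enriched before the sort, and no label gives the number of animals in a library.

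Cytokine genes of helper T cells are largely silent at rest and are switched on when the T cell receptor and the costimulatory receptor CD28 are engaged together. Calcium-driven NFAT, AP-1 and NF-κB factors then act on their promoters, and each cytokine is typically made by only some of the activated cells. Naive CD4+ T cells chiefly make interleukin 2 and tumor necrosis factor family ligands in the first day, whereas interferon gamma and interleukin 4 mark cells that have been committed to a helper lineage.

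After removal of barcodes with 200 or fewer genes or with 15% or more mitochondrial transcripts, 8031, 9903 and 13920 cells remained in unstimulated WT, stimulated WT and, in that order, the knockout, with 37133949, 116979076 and 106435143 unique molecular identifiers (UMIs, each the count of a captured transcript). Median depth was 4627, 12167 and 5014.5 UMIs per cell. T cell markers summed to between 2786 and 3458 counts per 1000000 UMIs (CPM) in the 3 libraries. In unstimulated WT, stimulated WT and the knockout, the 5 genes of the B cell list summed to 13.8, 43.8 and 45.8 CPM, mostly *Cd74* (10.5, 42.9 and 44.4 CPM), with *Ms4a1* at 0, 1 and 1 UMIs. The 6 NK or innate lymphoid genes summed to 43.3, 1.44 and 1.43 CPM, mostly *Klrd1*, found in 14.1% of unstimulated cells. Each other gene of that list had at most 17 UMIs in unstimulated WT, with *Ncr1* at 1. The CD8 genes summed to 28.7, 9.16 and 11.5 CPM. In unstimulated WT *Cd8b1* was found in 10.8% of cells but *Cd8a* in 0.0747%, with 6 UMIs. The 6 myeloid genes summed to at most 0.754 CPM. The part of such cells in the levels below was not tested. *Ift20* stood at 64.4, 76.0 and 6.60 CPM, lowest in the library labelled knockout. Each condition was a single library, so no difference between conditions could be tested. All intervals given are exact 95% intervals that cover counting error only. Between 114 and 197 cell barcodes were shared by a pair of libraries. *Il2* was detected in both cells of 0 of the 114 barcodes shared by the unstimulated and stimulated WT libraries, and in both cells of 4 of the 197 shared by the stimulated libraries.

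The first question was which of these genes were higher 24 h after stimulation. Of the 9 members with at least 10 UMIs over both WT libraries, 8 were at least 2-fold higher in stimulated than in unstimulated WT cells and 0 were at least 2-fold lower. Among all 13297 genes counted the same way, 19.3% were at least 2-fold higher and 23% at least 2-fold lower. Because the members were chosen with earlier results of these data known, setting them beside all genes is a description only. The median log2 ratio of the 9 members was 3.77, beside −0.09 over all genes. That median is the ratio of *Csf2*, which had 0 UMIs at rest and was given 3 counts there. Together the 10 members took 56.7 CPM of the unstimulated WT library, 418 CPM of the stimulated WT library and 326 CPM of the stimulated IFT20-KO library.

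**Figure D1:**
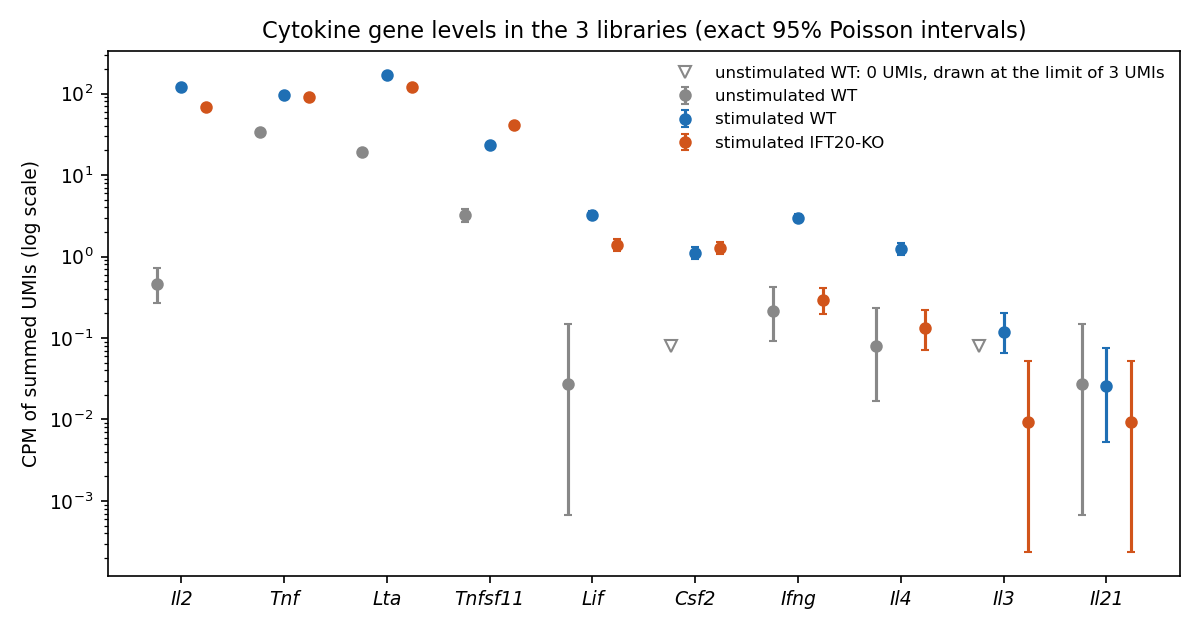
Level of each member in CPM of summed UMIs (log axis) in the 3 libraries; points are libraries, bars are exact 95% Poisson intervals, and open triangles mark 0 UMIs, drawn at the level of 3 UMIs. Il2, Tnf, Lta and Tnfsf11 lie between 23.2 and 168 CPM in both stimulated libraries, and the other 6 members lie at or below 3.24 CPM.

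*Il2*, the growth factor that activated T cells make for themselves, had 17 UMIs (0.458 CPM, interval 0.267 to 0.733) in unstimulated WT, 14121 UMIs (121 CPM, 119 to 123) in stimulated WT and 7314 UMIs (68.7 CPM, 67.2 to 70.3) in stimulated IFT20-KO cells. It was thus almost undetected at rest and abundant in both stimulated libraries. The stimulated WT level was 264-fold higher than the unstimulated one (165 to 453), and only 8 of 13297 genes had a larger ratio. *Il2* was detected in 0.162% of unstimulated cells, 16.5% of stimulated WT cells (15.7 to 17.2) and 13.7% of IFT20-KO cells (13.1 to 14.2). With every cell thinned to 1400 UMIs, which left out 801, 421 and 0 cells, the shares were 0.0692%, 6.72% and 5.81%. A resting class was formed of barcodes with *Il7r* and without the activation genes *Il2ra*, *Tnfrsf4* and *Tnfrsf9*. In unstimulated WT it had *Il2* in 0.139% of 5054 cells, at a median of 4810 UMIs. With only 17 *Il2* UMIs in that whole library, this share cannot give the background of the stimulated libraries. There the class held only 22 cells in stimulated WT, 0 of them with *Il2*, and 37 in IFT20-KO, 2 of them with *Il2*.

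*Lta* encodes lymphotoxin alpha, a secreted ligand of the tumor necrosis factor family that helps organise lymphoid tissue. It had 19.4 CPM (18.0 to 20.8), 168 CPM (166 to 171) and 121 CPM (119 to 123) at rest, after stimulation of WT cells and after stimulation of IFT20-KO cells, which made it the most abundant member after stimulation in both genotypes. It was 8.69-fold higher in stimulated than in unstimulated WT cells (8.07 to 9.38). *Lta* was detected in 7.83%, 41.5% and 34.3% of cells, and in 2.75%, 15.6% and 14.3% at 1400 UMIs.

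*Tnf*, the gene of the inflammatory cytokine tumor necrosis factor, was the most abundant member at rest. Its level was 33.3 CPM (31.5 to 35.2) in unstimulated WT, 96.8 CPM (95.1 to 98.6) in stimulated WT and 91.4 CPM (89.5 to 93.2) in stimulated IFT20-KO cells. The 2.90-fold difference between the WT libraries (2.74 to 3.08) was the smallest among the 8 members past 2-fold. *Tnf* was detected in 12.5%, 46.8% and 38.4% of cells, and in 4.09%, 13.7% and 14.3% at 1400 UMIs. Resting-class barcodes of the unstimulated library held *Tnf* in 12.7% of cells, about the share of the whole library, and the part of free RNA in this share was not tested. In the stimulated libraries that class held *Tnf* in 6 of 22 WT cells and 6 of 37 IFT20-KO cells.

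*Tnfsf11*, which encodes RANKL, the membrane ligand known for driving osteoclast formation and lymph node development, had 3.23 CPM (2.68 to 3.86), 23.2 CPM (22.3 to 24.1) and 41.4 CPM (40.2 to 42.7) in the same order. The stimulated WT level was 7.17-fold higher than the unstimulated one (5.97 to 8.68). It was detected in 1.31%, 14.2% and 18.6% of cells, and in 0.456%, 3.24% and 6.01% at 1400 UMIs. Among the 4 abundant members it was the only one whose level was highest in the IFT20-KO library.

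*Lif*, encoding a cytokine of the interleukin 6 family, was counted once in unstimulated WT, 379 times in stimulated WT (3.24 CPM, 2.92 to 3.58) and 148 times in stimulated IFT20-KO cells (1.39 CPM, 1.18 to 1.63). The ratio between the WT libraries was 120 with a counting interval from 21.5 to 4764. Its transcripts were spread thinly: 337 of 9903 stimulated WT cells (3.40%) held it, and the cell with the most held 4 UMIs. *Csf2*, encoding the myeloid growth factor GM-CSF, had 0 UMIs in unstimulated WT, where 3 counts would be 0.0808 CPM, and 129 and 135 UMIs (1.10 and 1.27 CPM) in the stimulated libraries. Its level in stimulated WT was therefore 13.7-fold higher than the limit set by 3 counts. The lower counting bound of the ratio, taken from 129 against 0 UMIs, was 10.9-fold. *Csf2* was detected in 0.798% of WT and 0.733% of IFT20-KO cells. The 0 of 8031 unstimulated cells allow a share of cells with a *Csf2* UMI of up to 0.0374% by the limit of 3 counts, which says nothing of transcripts missed at this depth.

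*Ifng* and *Il4*, the signature cytokine genes of T helper 1 and T helper 2 cells, were rare in every library. *Ifng* had 8, 347 and 31 UMIs (0.215, 2.97 and 0.291 CPM) in the same order of libraries, and was detected in 7, 36 and 14 cells. *Il4* had 3, 145 and 14 UMIs (0.0808, 1.24 and 0.132 CPM) in 2, 16 and 4 cells. Between the WT libraries the ratio of *Ifng* was 13.8 (6.91 to 32.1) and that of *Il4*, from 3 UMIs at rest, was 15.3 with a counting interval from 5.15 to 75.3. In stimulated WT, 1 cell alone held 170 of the 347 *Ifng* UMIs and another held 80 of the 145 *Il4* UMIs, so both levels rested on a handful of cells. *Il3*, which encodes a growth factor for blood progenitors and basophils, had 0, 14 and 1 UMIs, and *Il21*, the follicular helper cytokine gene, had 1, 3 and 1. At this depth *Il21* could not be compared between libraries. The ratio of *Il3* between the WT libraries, taken from 14 against 0 UMIs, had a lower counting bound of 1.05-fold. Its level in stimulated WT, 0.120 CPM (0.0654 to 0.201), was 1.48-fold higher than the limit set by 3 counts at rest. The interval of that level includes the limit of 0.0808 CPM. The *Il3* level fell below the limit without the cell that held 6 of its 14 UMIs.

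All 10 members are protein-coding genes with chromosomal positions in the GRCm38 build, the build of the files, as annotated by GENCODE M21, and several lie side by side. *Il2* (chr3:37120523-37125959, minus strand, 4 exons) and *Il21* (chr3:37222759-37232636, minus strand) are separated by 96.8 kb with 0 protein-coding genes between them, yet *Il2* had 14121 and *Il21* 3 UMIs in stimulated WT. *Tnf* (chr17:35199381-35202007) and *Lta* (chr17:35203165-35205351) lie 1.16 kb apart on the minus strand, and these neighbours were the members with the highest counts at rest. *Csf2* (chr11:54247271-54249667) and *Il3* (chr11:54265303-54267277) lie 15.6 kb apart. *Il4* (chr11:53602982-53618669), *Lif* (chr11:4257557-4272514), *Ifng* (chr10:118441046-118445892) and *Tnfsf11* (chr14:78277445-78308043) complete the set. The only protein-coding gene that overlaps a member is *Adad1*, on the strand opposite to *Il2*, and it had 0, 2 and 3 UMIs in the 3 libraries.

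The sequences just upstream of 4 members are shown because these genes were higher after stimulation while differing in level at rest and in the direction of their difference in IFT20-KO cells. They are RefSeq promoter sequences (GRCm38.p6), printed 5′ to 3′ in the direction of transcription and ending at the base before the transcription start. Capitals mark GGAAA, the core bound by NFAT and related factors, TGANTCA, the AP-1 site, and TATAAA, the TATA motif, each on either strand.
Il2, chr3:37125960-37126204 (minus strand): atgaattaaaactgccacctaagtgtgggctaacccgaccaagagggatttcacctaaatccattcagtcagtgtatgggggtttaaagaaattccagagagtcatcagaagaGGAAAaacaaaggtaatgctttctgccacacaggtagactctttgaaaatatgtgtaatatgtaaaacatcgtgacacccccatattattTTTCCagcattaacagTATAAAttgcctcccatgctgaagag
Lif, chr11:4257318-4257556 (plus strand): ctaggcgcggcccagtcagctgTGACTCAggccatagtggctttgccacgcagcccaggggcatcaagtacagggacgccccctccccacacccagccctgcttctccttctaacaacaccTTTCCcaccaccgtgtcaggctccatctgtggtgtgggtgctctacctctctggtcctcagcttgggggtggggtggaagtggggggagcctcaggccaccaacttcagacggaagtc
Tnf, chr17:35202008-35202257 (minus strand): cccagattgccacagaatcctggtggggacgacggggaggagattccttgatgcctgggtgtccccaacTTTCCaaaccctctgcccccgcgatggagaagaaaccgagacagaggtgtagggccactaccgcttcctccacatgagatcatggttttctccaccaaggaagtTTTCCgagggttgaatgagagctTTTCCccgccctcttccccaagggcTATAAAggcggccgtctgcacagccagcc
Tnfsf11, chr14:78308044-78308293 (minus strand): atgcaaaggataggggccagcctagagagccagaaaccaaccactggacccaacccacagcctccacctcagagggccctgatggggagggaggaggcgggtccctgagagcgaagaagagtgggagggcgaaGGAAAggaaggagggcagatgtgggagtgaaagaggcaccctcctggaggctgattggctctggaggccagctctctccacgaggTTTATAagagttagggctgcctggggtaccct
All 10 members matched the RefSeq table, with 11 promoters. In the 250 bases before the start, GGAAA was present in 10 of these 11 promoters and in 55.6% of all 32851 promoters in the table. TATAAA was found in 5 of the 11, those of *Il2*, *Tnf*, *Lta*, *Ifng* and *Tnfsf11*, against 12.4% of all promoters. In *Il2* and *Tnf* it began 26 and 29 bases before the end of the printed sequence. TGANTCA was found in 1 of the 11, that of *Lif*, against 6.75% of all promoters. A match gives only the presence of these letters in this window.

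The level at rest was not evenly spread over the unstimulated cells. All 8 *Ifng* UMIs lay in the 82 cells without *Foxp3* and with at least 2 UMIs over the memory and effector genes *S100a4*, *S100a6*, *Cxcr3* and *Ccr2*, and none in the other 7606 cells or in the 343 cells with *Foxp3*, the regulatory T cell factor. The same 82 cells held 5 of the 17 *Il2* UMIs and 2 of the 3 *Il4* UMIs. *Lta* stood at 45.5 CPM (35.8 to 56.9) in the *Foxp3* cells and 18.0 CPM (16.6 to 19.4) in the remaining cells, at median depths of 4583 and 4623.5 UMIs, and at 30.3 CPM (16.9 to 49.9) in the memory-marker cells. *Tnfsf11* stood at 16.1 CPM (6.97 to 31.8) in memory-marker cells and 10.8 CPM (6.39 to 17.0) in *Foxp3* cells, both above the 2.69 CPM (2.17 to 3.29) of the remaining cells. *Tnf* was similar across these classes, at 40.1, 44.4 and 32.9 CPM in *Foxp3*, memory-marker and remaining cells. These classes were set after the data had been seen.

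The genes most enriched in resting cells with *Tnf* differed from those with *Lta*, apart from *Nr4a1*. In unstimulated cells thinned to 3000 UMIs, the 537 cells with *Tnf* had 123 CPM of *Nr4a1*, an immediate early gene of receptor signaling, and the cells without it 18.4 CPM. *Nfkbid* (88.1 against 22.1 CPM) and *Egr1* (163 against 41.6 CPM) followed. In the 358 cells with *Lta*, the most enriched genes were the interleukin 2 receptor genes *Il2ra* (68.9 against 11.4 CPM) and *Il2rb* (88.5 against 17.6 CPM), then *Nr4a1* (111 against 22.0 CPM). *Il2ra* was detected in 9.78% of the cells with *Lta* and 2.11% of those without. These ratios describe cells of 1 library and were not tested. *Foxp3* cells had 45.5 CPM of *Lta* against 18.0 CPM in the remaining cells. The part of *Foxp3* cells in the genes enriched with *Lta* was not tested.

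The comparison of genotypes asked which cytokine genes differed in stimulated cells that lacked IFT20. Of the 9 members with at least 10 UMIs over both stimulated libraries, 5 were at least 1.5-fold lower in the IFT20-KO than in the WT library (*Il2*, *Il3*, *Il4*, *Ifng* and *Lif*) and 1, *Tnfsf11*, was at least 1.5-fold higher. Among all 13504 genes, 3.27% were at least 1.5-fold lower and 13.4% at least 1.5-fold higher. At 2-fold, 4 members were lower (*Il3*, *Il4*, *Ifng* and *Lif*) and 0 higher, against 1.67% and 3.92% of all genes. In stimulated WT, *Il3*, *Il4* and *Ifng* were detected in only 4, 16 and 36 cells. A single cell held 42.9%, 55.2% and 49.0% of their UMIs there. *Il2*, *Lta*, *Tnf* and *Tnfsf11* did not reach 2-fold. The median log2 ratio of the 9 members was −0.81, and that of all genes was 0.14, which is the shift to which each ratio below can be referred. No test of these differences was possible with 1 library per genotype.

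**Figure D2:**
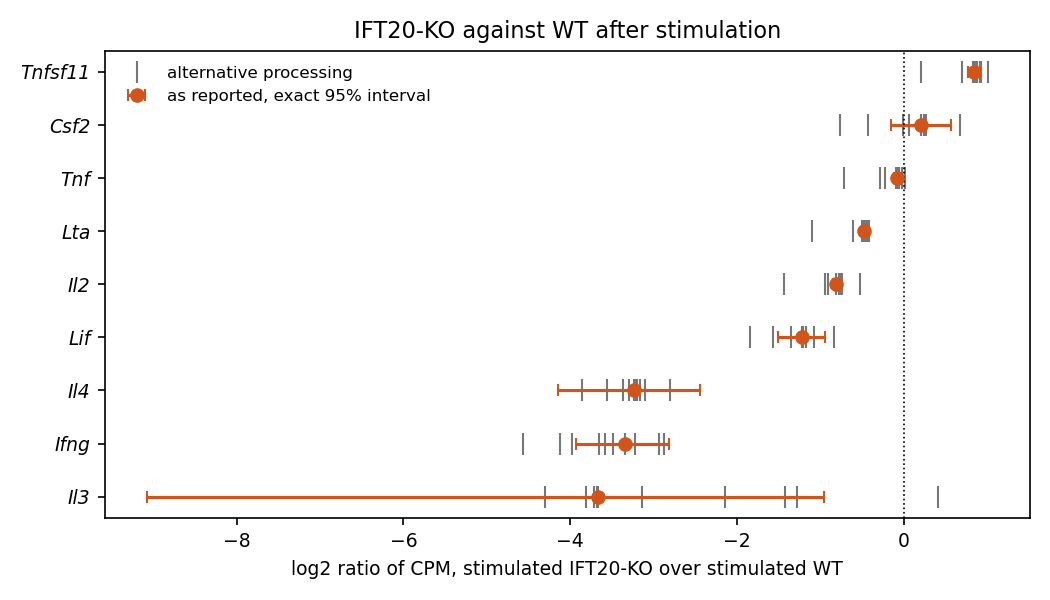
Log2 ratio of CPM between the stimulated IFT20-KO and WT libraries for the 9 members with at least 10 UMIs; points and bars give the ratio and its exact 95% interval for counting error, and grey ticks give the ratio under each alternative processing. Ifng, Il4, Lif, Il2 and Lta lie below 0 and Tnfsf11 above 0 under every alternative drawn, whereas Tnf, Csf2 and Il3 have ticks on both sides.

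*Il2* was 1.76-fold lower in the IFT20-KO library (interval 1.71 to 1.81, log2 ratio −0.81, or −0.95 after subtracting that median). This interval is too narrow, since it treats UMIs as independent. The 1% of cells with the most *Il2* held 49.1% of its UMIs in WT and 46.8% in IFT20-KO. Without the top cell of each library, an alternative added after seeing the data, the log2 ratio was −0.769. That lies outside the interval of −0.854 to −0.772. *Lif* was 2.33-fold lower (1.92 to 2.84, log2 ratio −1.22) and *Lta* 1.39-fold lower (1.36 to 1.42, log2 ratio −0.47). These 3 genes were lower in the knockout in each of 6 classes of cells by total UMIs. *Tnfsf11* was 1.79-fold higher (1.70 to 1.88, log2 ratio 0.84, or 0.70 after subtracting the median), again in all 6 classes. *Csf2* did not differ beyond counting error, at 1.15-fold (0.897 to 1.48). It was lower in the knockout in 3 of the 6 classes and higher in the other 3. A single cell held 17.1% of the *Csf2* UMIs in WT and another 17.0% in IFT20-KO. The part of such cells in these directions was not tested.

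*Ifng* and *Il4* had the largest ratios among the members with over 100 UMIs, at 10.2-fold lower (7.04 to 15.2) and 9.42-fold lower (5.44 to 17.7) in the IFT20-KO library. Without the cell that held the most UMIs of the gene in each library, an alternative added after seeing the data, the log2 ratio of *Ifng* moved from −3.35 to −2.87 and that of *Il4* from −3.24 to −3.56. The interval treats each UMI as independent, but the 10 cells with the most UMIs held 91.4% of the *Ifng* and 95.2% of the *Il4* UMIs of stimulated WT. As shares of cells, *Ifng* was detected in 0.364% (0.255 to 0.503) of WT and 0.101% (0.0550 to 0.169) of IFT20-KO cells. At 1400 UMIs these shares were 0.127% (0.0654 to 0.221) and 0.0431% (0.0158 to 0.0938), whose intervals overlapped. The 4 memory or effector marker genes summed to 4.34 CPM in WT and 1.89 CPM in IFT20-KO. *S100a6* stood at 3.25 and 1.15 CPM and *Cxcr3* at 1.02 and 0.648 CPM. *S100a4* (3 and 3 UMIs) and *Ccr2* (6 and 7 UMIs) were near the floor and not lower in IFT20-KO. The part of memory or effector cells in the *Ifng* and *Il4* levels was not tested. *Il3* was 12.7-fold lower with an interval from 1.94 to 539, from 1 UMI against 14 in 4 cells.

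The difference in *Tnf* varied with the depth of the cells compared. Pooled over all cells, *Tnf* was 96.8 CPM in WT and 91.4 CPM in IFT20-KO, a log2 ratio of −0.08. Within cells of at least 5000 UMIs it was 89.9 and 74.4 CPM, and within cells under 5000 UMIs it was 260 and 176 CPM, so the knockout level was lower on both sides. It was lower in all 6 classes by total UMIs, with separate intervals in each. Cells under 5000 UMIs, where *Tnf* was high, numbered 2387 of 9903 in WT and 6958 of 13920 in IFT20-KO and held 10.98% and 32.2% of the *Tnf* UMIs. These shallow cells had a median of 10.2% mitochondrial UMIs in WT and 5.597% in IFT20-KO, against 1.26% and 1.07% in deeper cells. The part of cell quality in the levels was not tested.

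**Figure D3:**
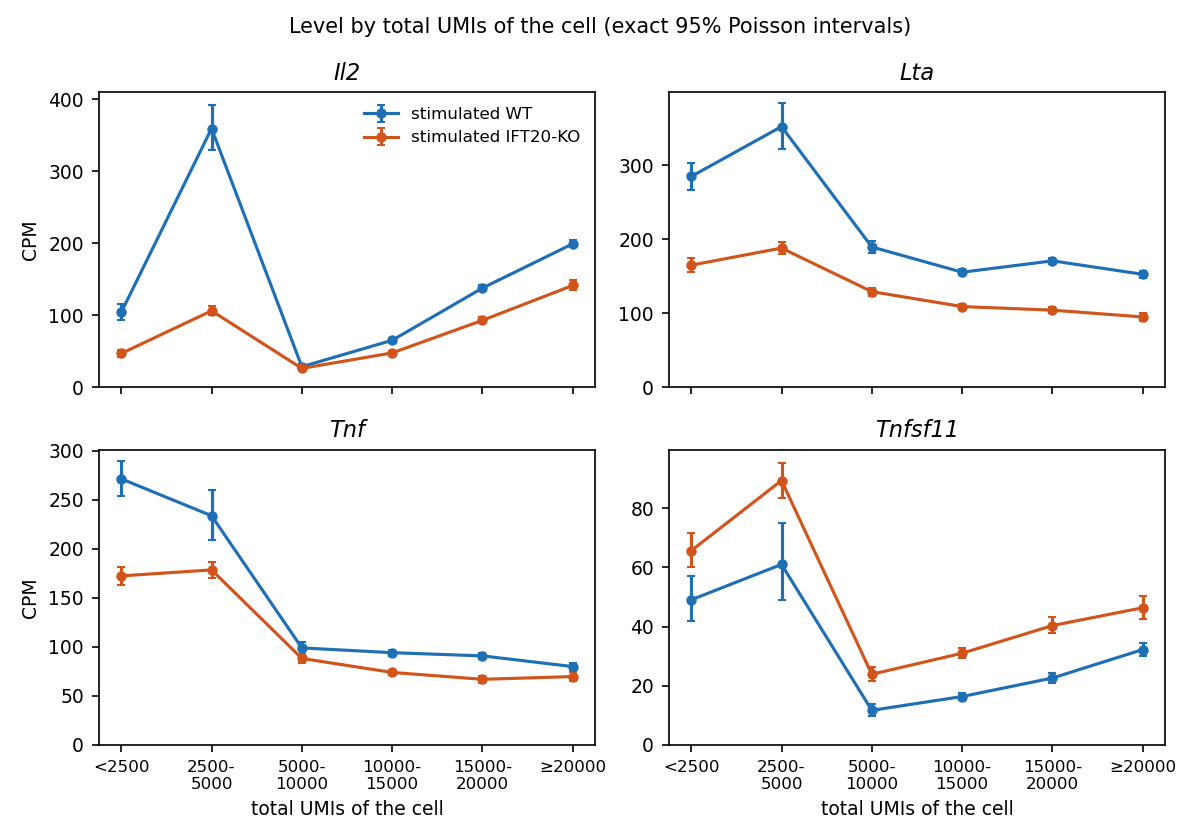
CPM of Il2, Lta, Tnf and Tnfsf11 in stimulated WT and stimulated IFT20-KO cells grouped by their total UMIs; points are sums over the cells of a class and bars are exact 95% Poisson intervals. Tnf falls from 271 to 79.9 CPM across the WT classes, Il2 is lowest at 28.3 CPM in WT cells of 5000 to 10000 UMIs, and Tnfsf11 is higher in the knockout in every class.

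*Il2* followed depth differently. In stimulated WT it was 104 CPM in cells under 2500 UMIs, 359 CPM at 2500 to 5000, 28.3 CPM at 5000 to 10000, and then 65.0, 138 and 199 CPM in the deeper classes. In the same classes the IFT20-KO library stood at 46.7, 106, 26.0, 47.5, 92.7 and 141 CPM. It shared the rise at 2500 to 5000 UMIs and the dip after it, but its highest level lay in the deepest class. The WT class of 2500 to 5000 UMIs held only 434 cells, 76 of them with *Il2* (17.5%). In IFT20-KO that class held 3182 cells, of which 14.3% had *Il2*. Median mitochondrial shares there were 9.31% in WT and 5.84% in IFT20-KO. *Il2* was thus lowest in cells of 5000 to 10000 UMIs and higher both in the shallow, mitochondria-rich barcodes and in the deepest cells, where 33.8% of WT and 33.0% of IFT20-KO cells held it. In cells of 5000 to 10000 UMIs the intervals of the genotypes overlapped (25.2 to 31.7 and 23.6 to 28.6 CPM). *Lta* declined from 352 CPM at 2500 to 5000 UMIs to 153 CPM in the deepest WT cells, and from 188 to 94.9 CPM in the knockout.

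To set how many cells held a cytokine transcript beside how much each held, every stimulated cell was thinned to 5000 UMIs. This kept 7516 WT and 6962 IFT20-KO cells and left out 2387 and 6958 shallower ones. *Il2* was then found in 11.9% of WT cells (11.2 to 12.6) and 10.4% of IFT20-KO cells (9.66 to 11.1), with 4.07 and 2.59 UMIs per detecting cell. The shares differed by 1.15-fold (1.04 to 1.27). At higher thresholds they differed more: cells with at least 5 *Il2* UMIs were 1.75-fold more frequent in WT (1.37 to 2.24), and cells with at least 10 were 2.68-fold more frequent (1.71 to 4.31). At least 20 *Il2* UMIs were reached by 25 WT cells and 2 IFT20-KO cells.

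*Lta* showed the same widening, from 28.7% and 25.8% of cells with any UMI to 1.32% and 0.517% with at least 10, a 2.55-fold difference (1.72 to 3.84). *Tnf* was detected in 28.4% and 27.2% of cells, whose intervals overlapped, and at least 5 *Tnf* UMIs were held by 0.772% and 0.302%, a 2.56-fold difference (1.53 to 4.44). For these 3 genes the ratio between the libraries was therefore larger at high thresholds than for any UMI. A uniformly lower level per cell would also widen the ratio with the threshold. The thresholds thus do not separate the number of cells from the amount in each. *Tnf* had only 1.60 and 1.42 UMIs per detecting cell. *Tnfsf11* was detected in 6.93% of WT (6.37 to 7.53) and 12.4% of IFT20-KO cells (11.6 to 13.2), with 1.40 and 1.35 UMIs per detecting cell. *Lif* was found in 1.58% (1.31 to 1.89) and 0.546% (0.387 to 0.748) of cells. *Lif* had 1.07 and 1 UMIs per detecting cell. For *Tnfsf11* and *Lif*, at so few UMIs, the number of cells with the transcript and the amount in each cannot be told apart either.

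**Figure D4:**
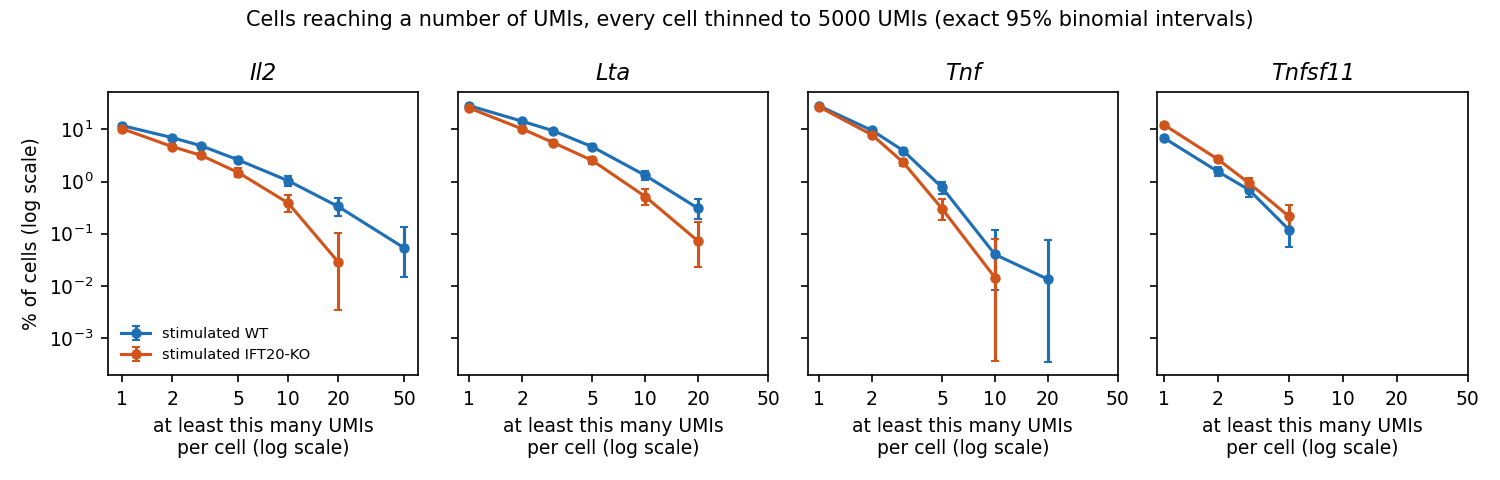
Percentage of stimulated WT and stimulated IFT20-KO cells (log axis) with at least the given number of UMIs (log axis) of Il2, Lta, Tnf and Tnfsf11, every cell thinned to 5000 UMIs; bars are exact 95% binomial intervals, and thresholds reached by 0 cells are not drawn. The curves of Il2, Lta and Tnf lie close together at 1 UMI and separate at higher thresholds, and that of Tnfsf11 is higher in the knockout up to 5 UMIs.

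The transcripts of *Il2* were concentrated in few cells. The 1% of cells with the most *Il2* held 49.1% of its UMIs in stimulated WT and 46.8% in IFT20-KO. The corresponding shares were 24.2% and 23.9% for *Lta*, 12.5% and 11.03% for *Tnf*, and 29.5% and 23.1% for *Tnfsf11*. The WT cell richest in *Il2* held 644 UMIs of it among 25768 UMIs, with 109 of *Tnf*, 79 of *Lta*, 20 of *Tnfsf11* and 4 of *Il3*. In the IFT20-KO library the highest *Il2* count was 119, in a cell of 31307 UMIs. Leaving out the top cell of each library changed the *Il2* log2 ratio from −0.81 to −0.77.

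The WT cell with the most *Il3*, 6 UMIs, also held 215 of *Il2*, 102 of *Lta* and 21 of *Tnf*, and the *Il2*-richest cell was the next in *Il3*. The WT cell with 170 *Ifng* UMIs held 0 of *Il2* and 6 of *Tnf*, together with 378 UMIs of *Ccl4*, 210 of *Ccl3* and 179 of *Xcl1*, chemokine genes typical of cytotoxic and T helper 1 cells. The WT cell with 80 *Il4* UMIs held 0 of the other 9 members. The WT cell with the most *Csf2*, 22 UMIs, also held 7 of *Ifng*, 8 of *Tnfsf11*, 2 of *Il3* and 327 of the chemokine gene *Ccl1*. The next, with 7 *Csf2* UMIs, held 37 UMIs of *Il17a*, the signature gene of T helper 17 cells, and 789 of *Ccl4*. These cells were picked for their counts and serve as a description. No doublet caller was run.

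Co-detection was described for the 6 members with enough cells, in stimulated cells thinned to 5000 UMIs. At that depth 47.3% of WT and 46.6% of IFT20-KO cells held 0 of the 10 members, 33.1% and 35.1% held 1, 14.4% and 13.9% held 2, and 4.30% and 3.62% held 3. The most held by a cell was 7 in WT and 5 in IFT20-KO. Of 15 pairs among the 6 members, the odds ratio of finding both in a cell was above 1 for 14 in WT and 12 in IFT20-KO. The exceptions were pairs with *Csf2*, which was found in only 34 and 24 of the thinned cells. Without thinning, with cells compared within deciles of total UMIs, the ratio was above 1 for all 15 in both libraries. All these cells share a library and a culture, and no p-value was computed. Odds ratios were not computed for pairs of genes outside the members. These counts of pairs therefore cannot be read as particular to the members.

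The pair with the highest odds ratio in WT was *Lif* and *Lta*, at 4.88: *Lta* was found in 65.5% of the 119 cells with *Lif* and in 28.1% of those without. In IFT20-KO the ratio was 2.10, over 38 cells with *Lif*. *Il2* and *Tnfsf11* had odds ratios of 2.68 in WT and 1.99 in IFT20-KO, and *Tnfsf11* was found in 14.4% of WT cells with *Il2* against 5.92% of those without. The neighbours *Tnf* and *Lta* had odds ratios of 2.24 and 1.96, beside those of *Il2* with *Lta* (2.04 and 1.72) and *Il2* with *Tnf* (2.03 and 1.82). Without thinning, within deciles of total UMIs, *Tnf* and *Lta* had 2.42 in WT and 1.79 in IFT20-KO. There *Il2* with *Lta* had 1.69 and 1.58, and *Il2* with *Tnf* had 1.93 and 1.67. The closeness in WT therefore depends on the method. Among the pairs formed by *Il2*, *Tnf*, *Lta* and *Tnfsf11*, that of *Tnf* with *Tnfsf11* had the lowest ratios in both libraries, at 1.48 and 1.36 with thinning.

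**Figure D5:**
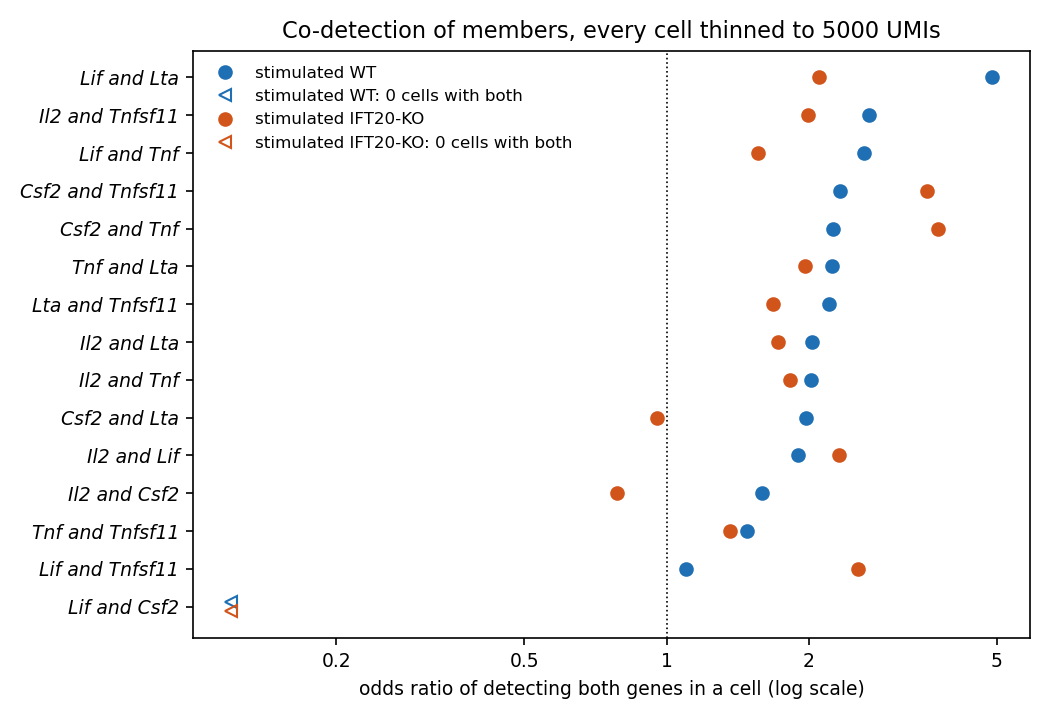
Odds ratio (log axis) of detecting both genes of a pair in a cell, for 15 pairs of 6 members, with every cell thinned to 5000 UMIs; each point is a library and the dotted line marks 1. In WT all pairs but Lif and Csf2, found together in 0 cells, lie to the right of the line.

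Chemokine genes ranked first in stimulated WT cells with each of the 4 abundant members, in part through individual cells. In stimulated WT cells with *Il2*, *Ccl4* stood at 374 CPM against 109 CPM in cells without, *Ccl3* at 68.3 against 23.3 CPM, and the interferon-induced gene *Ifitm2* at 77.7 against 28.7 CPM. The log2 ratios were 1.79, 1.55 and 1.43 in WT and 1.65, 2.37 and 1.03 in IFT20-KO. For *Tnf* the leading genes were *Ccl3*, *Ccl4* and *Il2*, and for *Lta* they were *Ccl3*, *Vim*, which encodes the filament protein vimentin, and *Il2*. *Vim* was detected in 17.1% of cells with *Lta* and 5.07% of those without (log2 ratio 2.05 in WT and 1.81 in IFT20-KO). For *Tnfsf11* the leading gene was *Ccl1* at 139 against 2.52 CPM, but *Ccl1* was found in 0.768% of those cells and 59.8% of its UMIs there came from 1 cell. For *Ccl3*, 1 cell gave 62.9% of the UMIs in cells with *Tnfsf11*, 32.4% in cells with *Tnf* and 30.5% in cells with *Lta*, and its log2 ratio with *Tnfsf11* was 2.79 in WT and 0.83 in IFT20-KO. *Il2* itself stood at 426 CPM in cells with *Tnfsf11* and 72.3 CPM in cells without.

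Other cytokine and ligand genes of T cells were read from a list of 29, of which 21 could be compared between the WT libraries. Of these, 10 were at least 2-fold higher and 5 at least 2-fold lower in stimulated WT, against 19.3% and 23% of all genes. The chemokine genes *Ccl4*, *Ccl3* and *Ccl1* had 0 UMIs at rest and 156, 33.8 and 12.1 CPM after stimulation. These levels were 1933-fold, 418-fold and 150-fold higher than the limit set by 3 counts. *Il16* (281 CPM at rest and 89.6 CPM after stimulation), *Osm* (17.8 and 8.44 CPM) and *Ltb*, the partner subunit of lymphotoxin alpha (916 and 445 CPM), had the lowest ratios of those at 10 CPM or more in 1 of the libraries compared. *Ltb* therefore took a smaller share of the UMIs while *Lta* took a larger one. Without scaling for depth, *Ltb* had 34005 UMIs in 8031 unstimulated cells and 52083 UMIs in 9903 stimulated WT cells. Its count per cell was thus not lower. *Osm* had 662 and 987 UMIs in these cells, and *Il16* had 10418 and 10481. In IFT20-KO cells, 2 of 23 were at least 1.5-fold higher and 4 lower than in WT, against 13.4% and 3.27% of all genes. The 4 lower genes were *Ccl1* (9 against 1419 UMIs), *Areg* (50 against 90), *Il17a* (0 against 46) and *Il10* (2 against 9). In WT, 1 cell held 37 of the *Il17a* UMIs and another held 327 of the *Ccl1* UMIs. The 2 higher genes were *Tnfsf10* (343 against 195 UMIs) and *Il13* (8 against 2). Among genes with at least 10 CPM, *Ccl1* had the lowest ratio, at 0.0846 against 12.1 CPM, whereas *Xcl1* (12.1 against 8.81 CPM) and *Cd40lg* (115 against 150 CPM) differed by less than 1.5-fold.

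Genes of the receptors for the members were read from a further list. Of 14 receptor genes with at least 10 UMIs, of 19 listed, 2 were at least 2-fold higher and 5 at least 2-fold lower in stimulated WT. The shares over all genes were 19.3% and 23%. *Il2ra*, the high-affinity subunit for interleukin 2, stood at 15.03 CPM at rest and 185 CPM after stimulation, and *Il2rb* at 25.0 and 47.4 CPM, a 1.90-fold difference. The interferon gamma receptor gene *Ifngr1* stood at 122 and 24.0 CPM, *Il4ra* at 120 and 41.9 CPM and *Il6st*, the signal-transducing subunit for LIF, at 51.0 and 20.7 CPM. Between genotypes, 0 of 14 were at least 1.5-fold higher and 1 was lower in the knockout, against 13.4% and 3.27% of all genes. The 1 lower gene was *Ltbr*, with only 4 UMIs in IFT20-KO and 9 in WT. *Il2rb* was 46.7 CPM in IFT20-KO and 47.4 CPM in WT.

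Among 29 factors that act on cytokine genes or their mRNA, 8 were at least 2-fold higher and 10 at least 2-fold lower in stimulated than in unstimulated WT. Of all genes, 19.3% were higher and 23% lower by that fold. Of those at 10 CPM or more in 1 of the libraries compared, the ratio of stimulation to rest was highest for *Irf4* (1.75 and 115 CPM), *Tbx21*, the T helper 1 factor T-bet (0.646 and 13.2 CPM), and *Egr2* (7.57 and 56.7 CPM). It was lowest for *Jun* (103 and 12.4 CPM), *Gata3*, the T helper 2 factor (58.7 and 13.9 CPM), and *Nfatc3* (111 and 35.9 CPM). In the IFT20-KO library 1 factor was at least 1.5-fold higher and 2 lower, against 13.4% and 3.27% of all genes. *Zfp36l2*, whose product promotes decay of AU-rich mRNAs, stood at 133 against 87.8 CPM. *Tbx21*, which promotes *Ifng* transcription, was 1.45 CPM in IFT20-KO against 13.2 CPM in WT, and lower in all 6 classes by total UMIs. *Tbx21* thus differed in the same direction as *Ifng*. The WT cell richest in *Ifng* held 1 *Tbx21* UMI, and the relation between these genes was not tested.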

How the data were processed

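Single-cell RNA from sorted CD4+ T cells of mouse spleen was re-analysed, with 1 library per condition. The authors aligned reads to mm10 and called barcodes with Cell Ranger (3.1.0 per the file headers), and deposited raw counts of UMIs per gene and barcode. The labels name a 5′ kit and the study's methods a 3′ kit, so the end that was read is uncertain, and levels were not scaled by gene length.

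Barcodes were kept above 200 detected genes and below 15% mitochondrial UMIs (222, 417 and 12 barcodes left out). UMIs were summed per library and expressed per 1000000 (CPM). Intervals are exact Poisson for CPM, exact binomial for ratios and Clopper-Pearson for shares, at the 95% level. Genes at 0 took a floor of 3 counts in the ratio but not in its interval, and comparisons over all genes required 10 UMIs over both libraries. Cells were thinned by drawing UMIs without replacement. Doublets were not called. The ratio intervals were run on simulated counts of 13297 and 13504 genes, where they covered 96.5% and 97.5% of 200 changed ratios for stimulation and genotype. These counts were Poisson draws, the model that the intervals assume. The run therefore cannot show the coverage for genes whose UMIs cluster in few cells.

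The 10 members and the gene lists were chosen with earlier results of these data known. Genes were named by a rule: all members and *Ift20*, the 3 genes most enriched in cells with a member (at least 200 detecting cells, at least 50 CPM), and the 3 highest and 3 lowest of each list at 10 CPM or more. Genes named for individual cells, the classes of unstimulated cells and the genes enriched at rest were chosen after values were seen. Alternatives covered scaling, barcode filters, thinning, depth windows and thresholds. Python 3.11.15, numpy 2.4.6, scipy 1.17.1, pandas 2.3.3 and matplotlib 3.10.9 were used.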

Additional observations from a re-analysis of the deposited data

How the results depend on the processing

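With UMIs per kept cell in place of CPM, the median log2 ratio of the members was 5.12 for stimulation and −1.44 for genotype, and 0 members were at least 1.5-fold higher in IFT20-KO, since that scale keeps the difference in depth between the libraries. With cells thinned to 1400 UMIs, 2 members were at least 1.5-fold higher in IFT20-KO. The counts of members higher after stimulation and lower in IFT20-KO stayed within 1.5 times under every alternative run.

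Reversals were few. The *Tnf* ratio between genotypes turned to 0.017 on the log2 scale without barcodes far below their own library's median UMIs, a limit that removed 23.2% of WT but 3.30% of IFT20-KO cells. *Il3* turned to −0.023 for stimulation with the mean of each cell's fraction, to −0.24 without its top cell, and to 0.41 for genotype in cells of 5000 to 15000 UMIs. The alternative without the top cell was chosen after seeing the data. *Csf2* ranged from −0.76 to 0.67 for genotype. The log2 ratios of *Il2* (−1.44 to −0.52), *Lta* (−1.10 to −0.42), *Lif* (−1.85 to −0.84) and *Tnfsf11* (0.21 to 1.01) kept their sign under all 10 alternatives run.

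No paired analysis was possible because each condition was 1 library, and for the same reason leaving out a replicate was not an option. Depth limits *Il3* and *Il21* to counts near the floor in 3 libraries, and the unequal cell depths limit shares of detecting cells. Counting intervals do not cover variation between mice or cultures.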
